A study of Mus musculus with 5 samples.

Results

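The genes described here make, sense or accompany dopamine: Th, Ddc, Aldh1a1, Nr4a2, Ret and Drd1, 6 of the 16347 genes in the table of read counts. They were chosen by name, and all 6 had a row. Single cells sorted from adult mice, all 3 months old, were sequenced one library per well with Smart-seq2, a full-length cDNA method without molecular identifiers. Of the 5 samples, 4 came from FoxJ1CreERT2 R26TdT mice (10 animals, 5 females and 5 males), in which Cre is driven by the promoter of Foxj1, a gene of cells with motile cilia. They held cells of the spinal cord, of the midbrain aqueduct and of the lateral and the third ventricle. The remaining sample held midbrain cells of Nkx2-2Cre R26TrapC mice (7 females), in which Cre is driven by Nkx2-2, a gene of the ventral neural tube and of the oligodendrocyte lineage.

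Th, tyrosine hydroxylase, makes L-DOPA and is the rate-limiting enzyme of catecholamine synthesis. Ddc, aromatic L-amino acid decarboxylase, turns L-DOPA into dopamine and 5-hydroxytryptophan into serotonin. Aldh1a1 oxidises retinaldehyde to retinoic acid, also clears an aldehyde made from dopamine, and marks a subset of midbrain dopamine neurons. Nr4a2 (Nurr1) is an orphan nuclear receptor that dopamine neurons need for their development. Ret is the signalling receptor for GDNF family ligands, which it binds together with a GFRα coreceptor. Drd1 encodes the D1 dopamine receptor, which raises cyclic AMP.

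Midbrain cells of both lines were split in a fixed order on CPM, the reads of a gene per 1000000 reads of the cell. Cells with Ccdc153, a gene of motile cilia, at 1000 CPM or more formed the Ccdc153 class. Of the others, cells with Sspo, the SCO-spondin of the subcommissural organ, at 500 CPM or more formed the Sspo class. Of those left, cells with Mog, a myelin gene, at 500 CPM or more formed the Mog class, and the rest are called other cells. The Foxj1 line midbrain gave 317 Ccdc153, 196 Sspo and 34 other cells, and no cell in a Mog class. The Nkx2-2 line gave 19 Ccdc153, 12 Sspo, 243 Mog and 53 other cells. The lateral ventricle held 240 cells, the third ventricle 245 and the spinal cord 114, for 1473 cells in all. Group levels below are CPM of the reads summed over all cells of a group, and a cell is counted as read for a gene when it holds at least 1 read of it.

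Reads per cell ran from 108417 to 7182157, with group medians between 606241 in midbrain other cells and 1362236 in the Nkx2-2 line Mog class. The ependymal list (6 genes, including Foxj1 and Ccdc153) summed to 12642 CPM for the lateral ventricle, 11920 for the third ventricle, 12685 in the midbrain Ccdc153 class and 6414 in the spinal cord. The 2 subcommissural organ genes, Sspo and Spdef, summed to 11723 CPM in the midbrain Sspo class and 8709 in the Nkx2-2 line Sspo class. The 6 oligodendrocyte genes summed to 116550 CPM in the Nkx2-2 line Mog class and 6501 in the Nkx2-2 line Ccdc153 class. Ccdc153, Sspo and Mog are themselves in these lists. The sum of a class over its own list was therefore raised in advance by the rule. Of the 4 dopamine neuron markers listed, Th and Slc18a2 were analysed, and they summed to between 0.00 and 26.2 CPM in the 10 groups. Slc6a3 and Pitx3 were not analysed here. No label ties a cell to an animal, each group is 1 sample, and cells of a sample are not replicates, so no test was made. The 95% intervals are exact, Clopper-Pearson for shares of cells and Poisson for summed reads. They cover counting error only, since reads of this method are not independent molecules, having no molecular identifiers.

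Each member had its own pattern across the cells. Drd1 and Nr4a2 were high in the Sspo classes of both lines, Ddc in the Mog class of the Nkx2-2 line, and Aldh1a1 in the other cells of the midbrain. Ret was read mainly in the spinal cord, in 8 of the 15 cells that carried it, and Th was read in 17 of 1473 cells. Reads of Th and Ddc were found together in 0 cells. The genes were read in different groups, with 9 Th and 0 Ddc cells in the midbrain Sspo class. The Mog class had 110 Ddc and 0 Th cells. The lack of joint cells therefore shows no exclusion within a group.

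**Figure D1:**
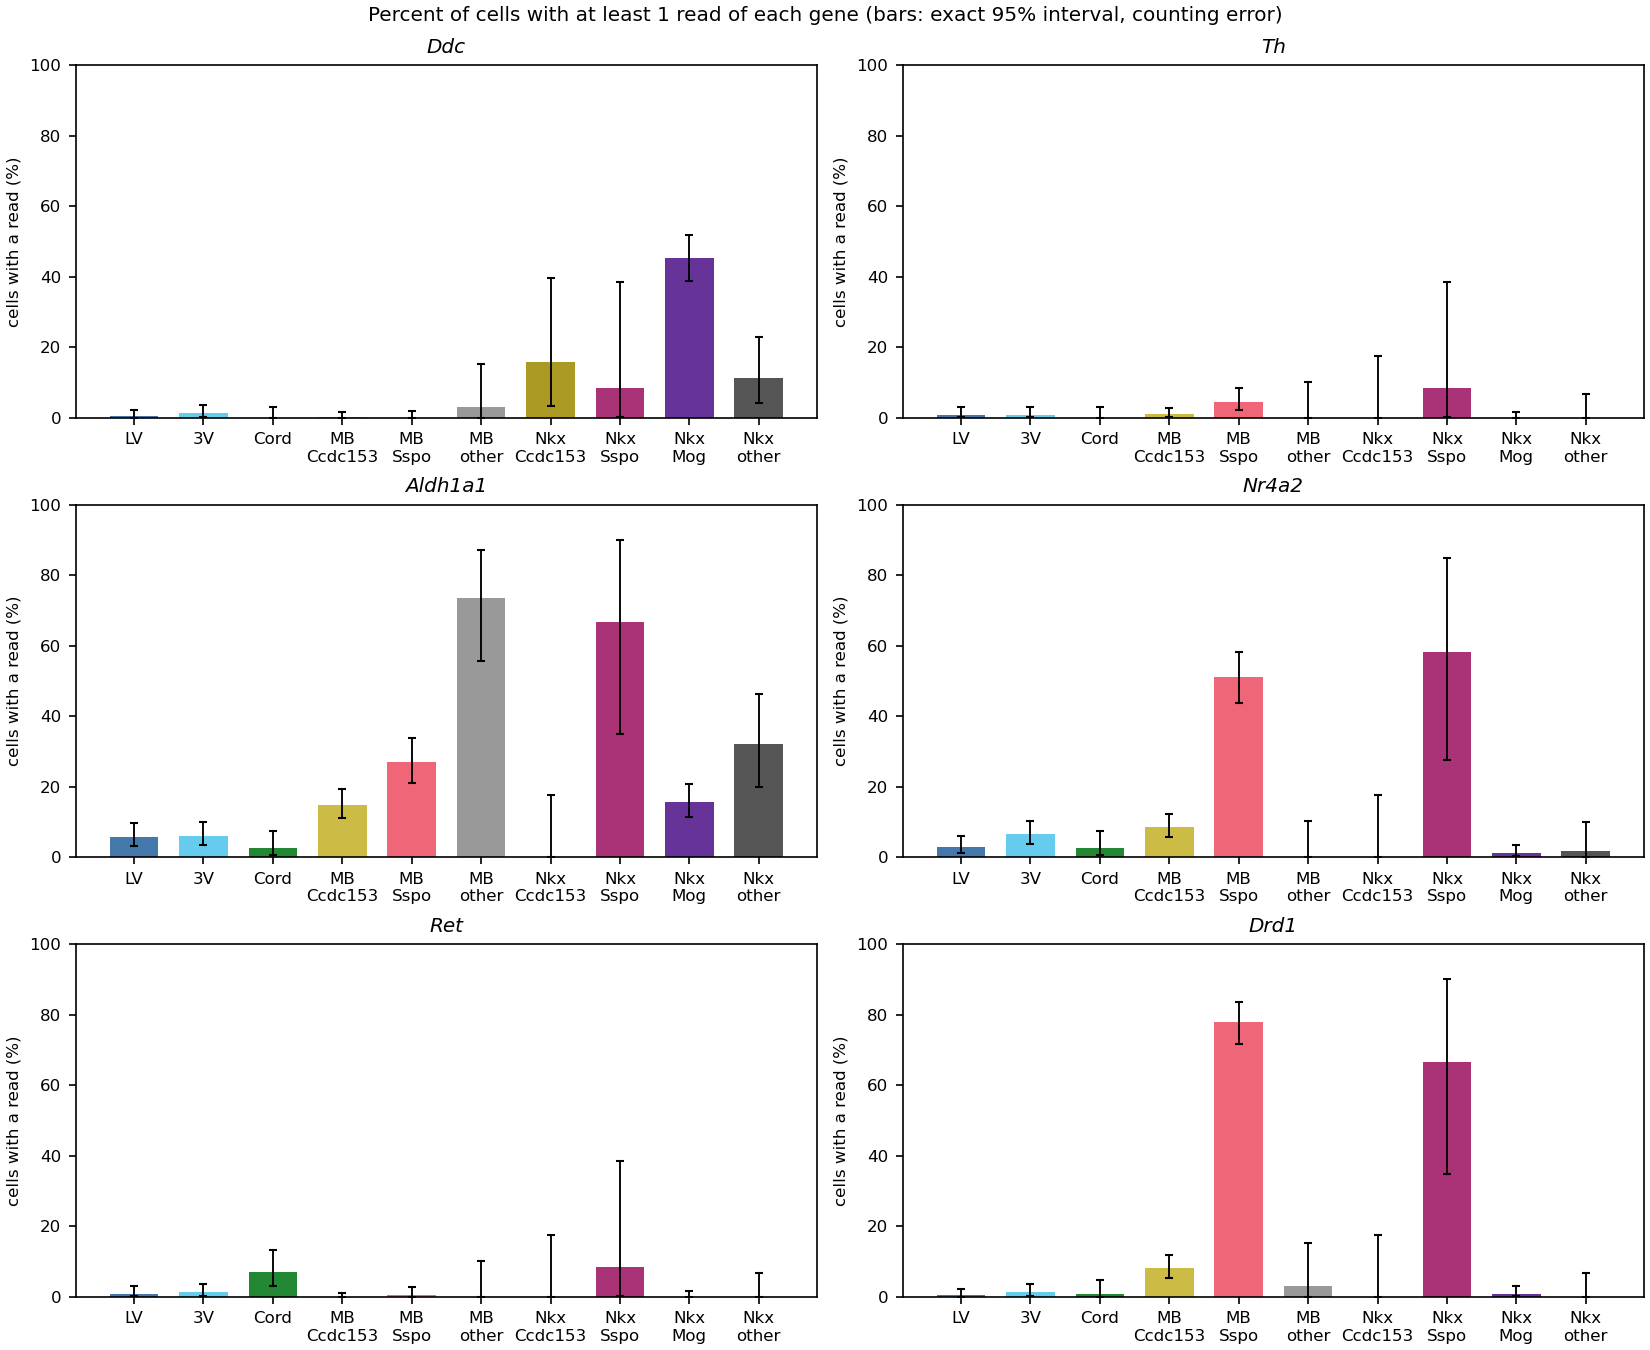
Percent of cells with at least 1 read of each of the 6 genes in each of the 10 groups, with 95% Clopper-Pearson intervals. Drd1 reached 78.1% in the midbrain Sspo class, Ddc 45.3% in the Nkx2-2 line Mog class and Aldh1a1 73.5% in the midbrain other cells, and the 12 cells of the Nkx2-2 line Sspo class give wide intervals.

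The windows around the start sites of the 4 genes that the text below follows most closely are shown so that their sequence can be set beside their levels. Each runs from 250 bases before to 50 bases after the start, 300 bases on the minus strand of GRCm38.p6, read 5′ to 3′ from RefSeq. Drd1 is shown at its start 1, chr13:54055609-54055908, and its start 2, at chr13:54054731-54055030, is not shown. Nr4a2 lies at chr2:57123954-57124253. Ddc has a pair of windows, start 1 at chr11:11898095-11898394 and start 2 at chr11:11890359-11890658, and Th lies at chr7:142899946-142900245. Capitals mark every match, on either strand, to TGACGTCA (the cyclic AMP response element), AAAGGTCA (an NR4A site), TTGGC (an NFI motif), ACAAAG or ACAATG (SOX motifs) and TATAAA.
Drd1: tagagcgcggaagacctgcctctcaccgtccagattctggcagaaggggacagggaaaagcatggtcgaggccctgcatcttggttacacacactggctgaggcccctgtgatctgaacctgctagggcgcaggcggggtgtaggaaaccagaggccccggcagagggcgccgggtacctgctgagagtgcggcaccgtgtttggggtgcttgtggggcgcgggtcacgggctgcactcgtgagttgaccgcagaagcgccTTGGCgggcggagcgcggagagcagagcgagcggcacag
Nr4a2: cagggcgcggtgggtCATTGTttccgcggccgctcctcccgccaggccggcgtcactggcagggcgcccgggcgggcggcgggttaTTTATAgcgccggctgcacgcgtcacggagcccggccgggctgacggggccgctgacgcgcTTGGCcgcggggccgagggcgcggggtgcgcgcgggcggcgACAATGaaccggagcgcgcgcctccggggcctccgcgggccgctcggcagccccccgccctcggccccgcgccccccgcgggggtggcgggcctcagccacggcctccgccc
Ddc start 1: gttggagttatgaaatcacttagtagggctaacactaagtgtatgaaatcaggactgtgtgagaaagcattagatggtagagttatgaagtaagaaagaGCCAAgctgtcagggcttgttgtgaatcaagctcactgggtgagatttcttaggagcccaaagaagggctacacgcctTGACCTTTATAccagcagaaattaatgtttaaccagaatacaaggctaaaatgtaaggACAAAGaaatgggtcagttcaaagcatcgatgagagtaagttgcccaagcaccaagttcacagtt
Ddc start 2: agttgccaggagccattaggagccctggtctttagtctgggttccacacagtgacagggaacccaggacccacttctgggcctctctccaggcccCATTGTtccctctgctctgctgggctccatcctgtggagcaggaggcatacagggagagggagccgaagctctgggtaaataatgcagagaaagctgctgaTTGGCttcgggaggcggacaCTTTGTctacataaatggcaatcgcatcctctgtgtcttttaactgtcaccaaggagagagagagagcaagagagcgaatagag
Th: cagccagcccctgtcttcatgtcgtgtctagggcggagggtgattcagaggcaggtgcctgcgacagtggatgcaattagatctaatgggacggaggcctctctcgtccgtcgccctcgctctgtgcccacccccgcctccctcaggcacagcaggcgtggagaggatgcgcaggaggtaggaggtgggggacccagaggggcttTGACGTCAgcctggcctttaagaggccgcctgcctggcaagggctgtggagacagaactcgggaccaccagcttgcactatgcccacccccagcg
The Th window held TGACGTCA from base -45 relative to the start, a motif found in 1.79% of 32851 RefSeq windows of this length. Ddc start 1 held the reverse strand of AAAGGTCA from base -73, overlapping the reverse strand of TATAAA from base -68. AAAGGTCA was in 1.51% of windows and TATAAA in 13.6%. The short TTGGC, in 46.7% of windows, was at base -103 in Nr4a2, at base 12 in Drd1 start 1, at base -54 in Ddc start 2 and, reversed, at base -151 in Ddc start 1. The Drd1 start 2 window, not shown, held it reversed at base -231. ACAAAG was in 18.7% of windows and in both Ddc windows, and ACAATG in 12.6% of windows, in the Nr4a2 window on either strand and, reversed, in Ddc start 2. The Nr4a2 window also held TATAAA, reversed, from base -164. These matches describe letters and show no binding.

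Th was read in few cells, and most of them were in the Sspo classes. Of the 196 midbrain Sspo cells 9 had a read, 4.59% (95% interval 2.12 to 8.54), at a summed level of 4.83 CPM and a median of 147 CPM in the cells with a read. The Nkx2-2 line Sspo class had 1 such cell of 12, at 213 CPM. The midbrain Ccdc153 class had 3 of 317 cells, the lateral ventricle 2 of 240 and the third ventricle 2 of 245. The highest Th level in any cell was 231 CPM, and 15 of the 17 cells reached 10 CPM. No Th read was found in the spinal cord, in the midbrain other cells or in the remaining Nkx2-2 line classes. In the 243 cells of the Mog class that absence allows a share of up to 1.23%, taking 3 cells as the limit for a count of 0, and the Clopper-Pearson upper bound is 1.51%. Of the 17 Th cells, 11 had Sspo at 500 CPM or more, 9 had a Drd1 read, 7 an Nr4a2 read and 4 an Aldh1a1 read. Inside the midbrain Sspo class Drd1 was read in 77.8% of Th cells and 78.1% of the rest. Only 1 of the 17 Th cells had a read of Slc18a2, the vesicular monoamine transporter, at 33.2 CPM. Of the 17, 0 had a read of Gch1, which makes the cofactor that Th needs.

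Ddc, the next enzyme, was a gene of the Mog class. There 110 of 243 cells had a read, 45.3% (38.9 to 51.8), at a summed level of 96.6 CPM (95.5 to 97.6). Cells with a read had a median of 138 CPM, with quartiles of 67.4 and 241 and a highest cell of 1162 CPM. The other 133 cells of the class had 0 Ddc reads. After each cell was thinned to 100000 reads, 39.9% of the class still had one, and 95 cells stood at 10 CPM or more. Ddc was read in every one of the 5 blocks of 96 consecutive wells that held at least 10 such cells, in 35.8% to 66.7% of cells and at 58.7 to 126 CPM.

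Outside the Mog class Ddc reads were rare, and most came from a few cells. In the Nkx2-2 line other cells 6 of 53 had a read, each between 0.432 and 3.05 CPM. The midbrain Sspo class had 0 of 196 cells and the spinal cord 0 of 114. The lateral ventricle and the midbrain other cells had 1 cell each, with 1 read. Over all groups 99 cells had Ddc at 10 CPM or more, and 96 of these had Mog at 500 CPM or more, out of 245 cells with that Mog level.

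The 4 cells at that level outside the Mog class were looked at after their values were seen. In the third ventricle 1 cell held 99.8% of the Ddc reads, at 2094 CPM. Without it the group stood at 0.0197 CPM. It had 7524 detected genes and Slc18a2 at 255 CPM. Of the listed neuronal genes with values, Snap25 stood at 1247 CPM, Gad1 at 788, Syn1 at 444 and Elavl4 at 201. Rbfox3 was at 1.28 CPM and Syt1 at 0 in the same cell. Th, Gch1, Ccdc153 and Mog were at 0 in it, so that Ddc and the vesicular transporter were present without the first enzyme. In the Nkx2-2 line Ccdc153 class 1 cell at 615 CPM held 99.7% of the Ddc reads. That cell had Mog at 4532 CPM beside Ccdc153 at 1299 CPM, with Foxj1 at 0. In the midbrain Ccdc153 class the single Ddc cell stood at 137 CPM, with Ccdc153 at 5499, Foxj1 at 387 and Mog at 0. The last was a further cell of the third ventricle, just past 10 CPM.

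Within the Mog class, Ddc cells and the rest had similar levels of the myelin genes Mog (3855 against 3798 CPM) and Mbp (12563 against 12305). Ptgds, prostaglandin D synthase, was lower in the Ddc cells, at 12748 against 21226 CPM, as was Opalin, at 856 against 1385 CPM. When the class was divided at its median Ptgds level, Ddc was read in 39 of 122 cells above it, 32% (23.8 to 41.0) at 47.7 CPM. Below it Ddc was read in 71 of 121 cells, 58.7% (49.4 to 67.6) at 136 CPM. Ddc cells were deeper, with a median of 1505387 reads against 1207553. With every cell thinned to 100000 reads, Ddc was read in 24.6% of cells above the Ptgds median and 55.4% below it.

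**Figure D2:**
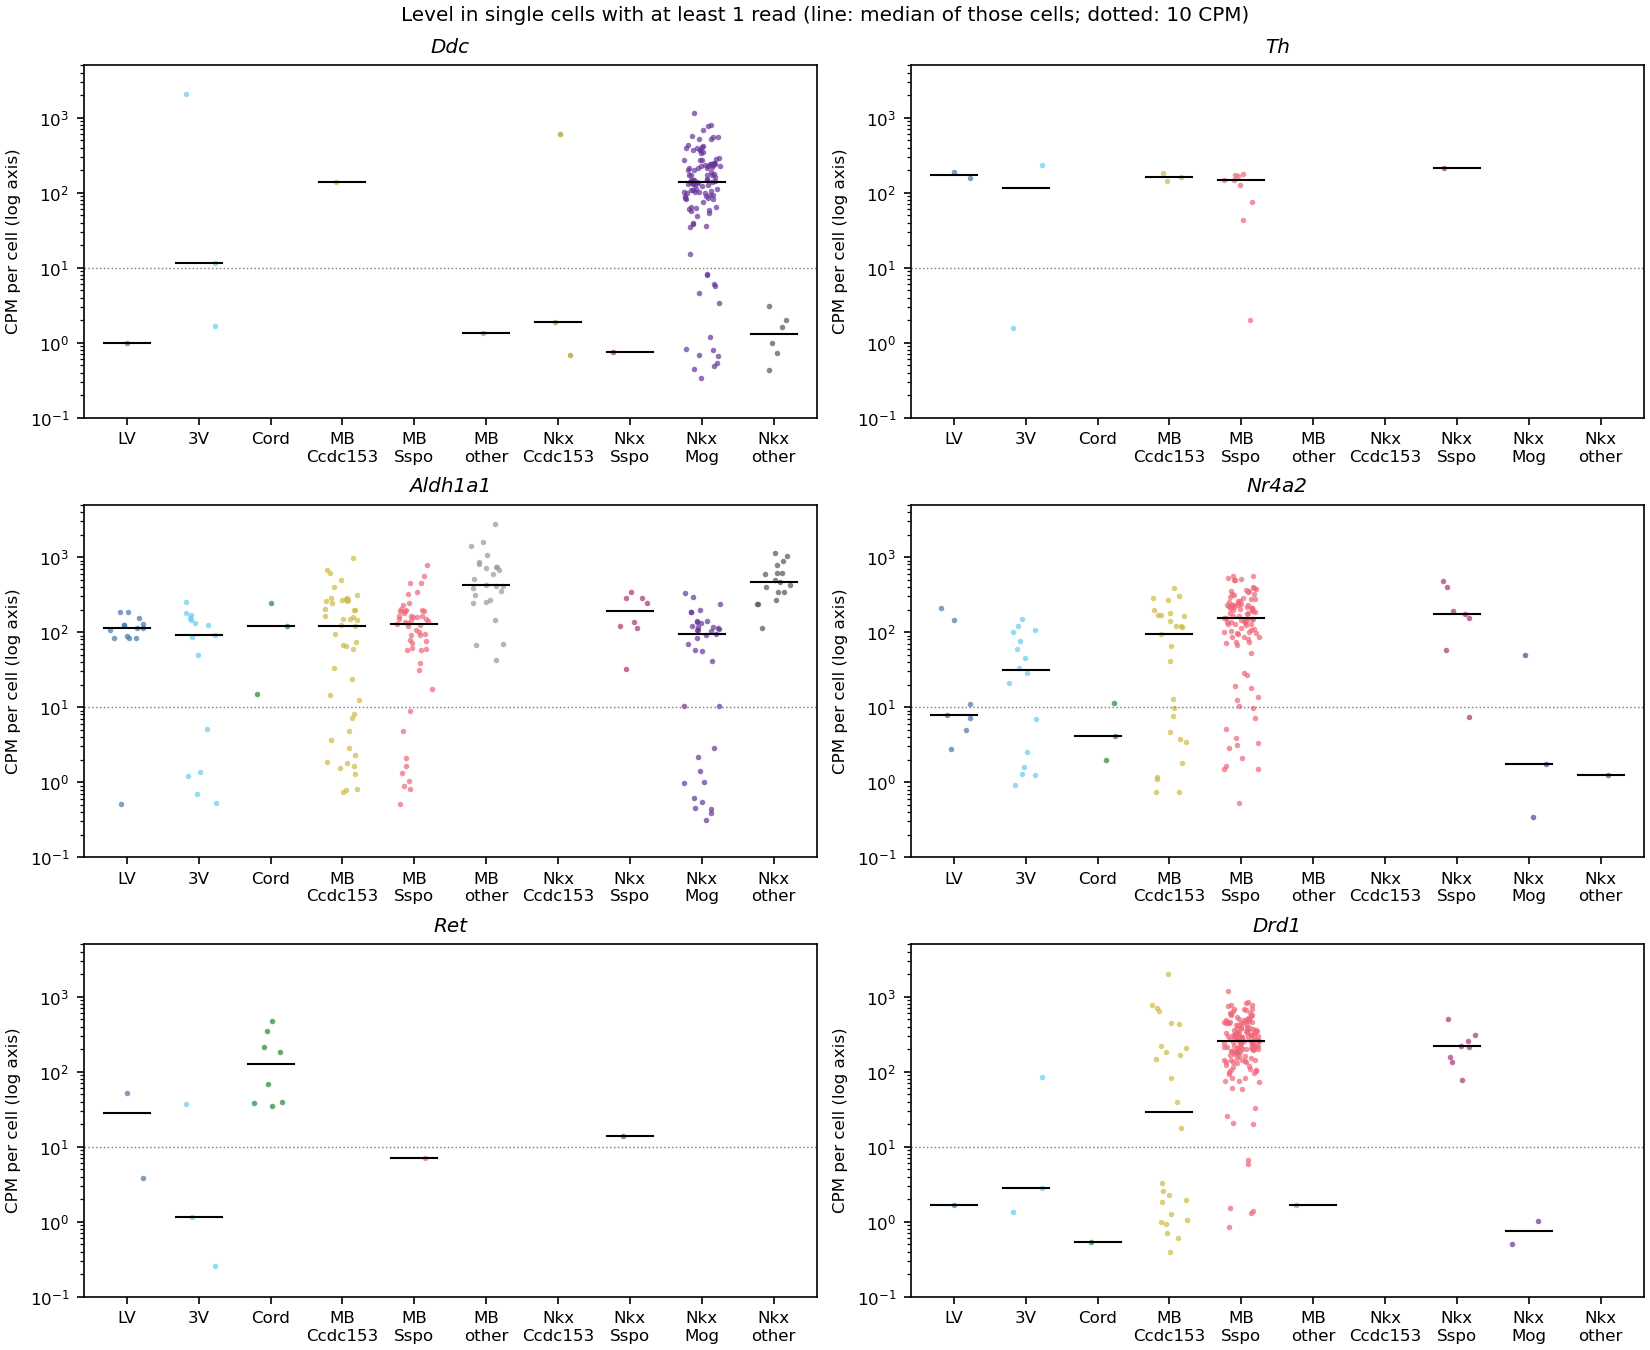
Level of each gene in every cell with at least 1 read of it, by group, on a log axis of CPM, 1 point per cell. Ddc cells of the Mog class reach 1162 CPM and Drd1 cells of the midbrain Sspo class 1195 CPM, while the 2094 CPM Ddc cell of the third ventricle stands alone.

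The cofactor genes around Th and Ddc did not share 1 pattern. Of 11 catecholamine synthesis and cofactor genes fixed in a list, 8 had values. In the Nkx2-2 line Mog class, set against the midbrain Ccdc153 class, 6 could be compared. Of these Ddc and Qdpr were at least 4-fold higher, Gchfr, Pts and Pcbd1 at least 4-fold lower. Over all genes that reached 10 CPM in either class, 9.66% were 4-fold higher and 26.5% 4-fold lower in this comparison. Qdpr, which recycles the cofactor tetrahydrobiopterin, was read in 100% of Mog class cells at 7158 CPM, against 113 CPM in the midbrain Ccdc153 class. Gch1, which starts the synthesis of that cofactor, was at 0.00 CPM in the Mog class. Slc18a2 was read in 14.8% of its cells at 8.67 CPM. The 5 uptake, storage and breakdown genes that could be compared between the midbrain Sspo and Ccdc153 classes included 0 that were 4-fold higher in the Sspo class and 1, Maob, that was lower (56.6 against 246 CPM), where 7.03% of all genes were higher and 7.39% lower.

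Aldh1a1 had its highest summed levels in the cells that none of the 3 class genes claimed. In the midbrain other cells 25 of 34 had a read, 73.5% (55.6 to 87.1), at 463 CPM (454 to 473). In the other cells of the Nkx2-2 line it was 17 of 53, 32.1% (19.9 to 46.3), at 149 CPM (146 to 153). The median cell with a read was alike in these groups, 428 and 467 CPM. The Nkx2-2 line Sspo class had a higher share than those other cells, 8 of 12 cells or 66.7%, at a summed level of 141 CPM. The midbrain Sspo class had 53 of 196 cells, 27.0% (21.0 to 33.8), at 46.0 CPM. Next came the midbrain Ccdc153 class with 14.8% (11.1 to 19.2) at 25 CPM and the Mog class with 15.6% (11.3 to 20.8) at 14.5 CPM, whose share intervals overlapped. The lateral ventricle had 14 of 240 cells at 7.39 CPM, the third ventricle 15 of 245 at 6.32 and the spinal cord 3 of 114 at 3.78. The Nkx2-2 line Ccdc153 class had 0 of 19.

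Other cells are a mixed group, and Aldh1a1 went with one side of it. Of the Nkx2-2 line, 21 of the 53 other cells had the astrocyte gene Agt at 500 CPM or more, and 14 of these, 66.7%, had an Aldh1a1 read, at 387 CPM. Of the 29 cells with Pdgfra or Gpr17, genes of oligodendrocyte precursors, at 100 CPM or more and Agt under 500, 3 had a read (10.3%), at 38.1 CPM. Aldh1a1 cells there had Gja1 at 3583 CPM against 826 in the rest and Slc1a2 at 2228 against 482. In the midbrain other cells Agt did not separate them, since 16 of 21 cells with Agt at 500 CPM or more and 9 of the other 13 had an Aldh1a1 read. There Aldh1a1 cells had Maob, a monoamine oxidase, at 3374 CPM against 745 and Vtn at 1885 against 108. The astrocyte genes went both ways. Aldh1l1 (714 against 140 CPM) and Aqp4 (1145 against 929) were higher in Aldh1a1 cells. Gja1 (1315 against 1965), Slc1a2 (359 against 548) and Agt (1549 against 1656) were lower. The 9 cells without a read held more of Mbp (2447 against 321 CPM), and 1 of them supplied all of their C1qa. Pericyte genes summed to 1434 CPM and microglia genes to 574 CPM in these 34 cells, and their part in the Aldh1a1 levels was not tested. Of 4 pericyte genes listed 2 had values, Vtn at 1387 CPM and Pdgfrb at 46.6. Vtn was not limited to this group, being read in 47.4% of midbrain Sspo cells and 66.7% of Nkx2-2 line Sspo cells.

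Of 20 retinoid genes listed, 14 had values. In the midbrain Sspo class, 11 were compared with the Ccdc153 class, of which Rbp4, a retinol carrier, was 4-fold higher or more (1596 against 78.2 CPM) and 2 were lower, Rarb among them (0.446 against 11 CPM). Over all genes 7.03% were higher and 7.39% lower in this comparison. In the Mog class 8 of 10 compared were lower, against 26.5% of all genes, among them Dhrs3, a retinaldehyde reductase (0.907 against 413 CPM). A gene low in the Mog class could be compared only by reaching 10 CPM in the midbrain Ccdc153 class, of the other line, which favoured a lower call. Aldh1a1 passed the 4-fold rule in neither comparison, at 1.84-fold higher in the Sspo class and 1.73-fold lower in the Mog class.

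Nr4a2 was a gene of the Sspo classes. In the midbrain Sspo class 100 of 196 cells had a read, 51.0% (43.8 to 58.2), at 92.5 CPM (91.0 to 94.0), with a median of 152 and a highest cell of 555 CPM among cells with a read. Of the 12 Nkx2-2 line Sspo cells 7 had one, 58.3% (27.7 to 84.8), at 156 CPM, or 111 CPM without its highest cell. The midbrain Ccdc153 class had 27 of 317 cells, 8.52% (5.69 to 12.2), at 7.75 CPM. The third ventricle had 16 of 245 at 2.37 CPM and the lateral ventricle 7 of 240 at 1.39 CPM. The spinal cord and the Mog class had 3 cells each, at 0.158 and 0.153 CPM. No read was found in the midbrain other cells or the Nkx2-2 line Ccdc153 class.

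Nr4a2 belongs to a family whose members are also immediate early genes, which rise within minutes of stimulation. Nr4a1 was read in 88.3% of midbrain Sspo cells at 1299 CPM, against 79.5 CPM in the Ccdc153 class. Nr4a3 was read in 13.3% of midbrain Sspo cells at 9.08 CPM and was highest in the spinal cord, at 174 CPM. Of the 10 NR4A and immediate early genes listed, 9 could be compared between the midbrain classes, 6 were at least 4-fold higher in the Sspo class and 1, Arc, was lower. Over all genes compared, 7.03% were higher and 7.39% lower. The median log2 difference of the 9 was 2.35, against 0.16 over all genes compared. In the Sspo classes Fos stood at 10943 CPM in the Foxj1 line and 511 in the Nkx2-2 line, and Egr1 at 4489 and 186. Nr4a2 stood at 92.5 and 156. The Nkx2-2 line class held 12 cells, and 1 of them held 37.4% of its Nr4a2 reads. The classes differ in line, reporter and sex of the animals, which cannot be told apart. Whether Nr4a2 follows the immediate early genes was not tested. Within the midbrain Sspo class, cells below the median Fos level had Nr4a2 in 53.1% and cells above it in 49.0%, at 98.1 and 86.9 CPM. Seen from the other side, cells with an Nr4a2 read had more Fos than those without (11801 against 9961 CPM), more Egr1 (4899 against 4019) and more Nr4a1 (1522 against 1043).

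Of the other factors and markers of dopamine neurons, 11 of 17 listed had values, and 7 could be compared between the midbrain classes. Besides Nr4a2, Lmx1b, a factor needed for dopamine progenitors, was higher in the Sspo class (87.2 against 12.9 CPM). Calb1 (0.679 against 171 CPM) and Sncg (0.715 against 120.2 CPM), which mark subsets of dopamine neurons, were lower there. Over all genes 7.03% were 4-fold higher and 7.39% lower in the Sspo class. In the Mog class all 5 that could be compared with the midbrain Ccdc153 class were at least 4-fold lower, against 26.5% of all genes. Their median log2 difference was -9.82. A gene low in the Mog class could be compared only by reaching 10 CPM in the Ccdc153 class, which favoured a lower call. The classes also come from different lines, so this count is a description only.

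Ret was found in 15 cells in all. The spinal cord had 8 of 114 cells, 7.02% (3.08 to 13.4), at 12.8 CPM (12 to 13.5), and these cells ranged from 34.6 to 472 CPM with a median of 127. Without the highest of them the group stood at 9.11 CPM. In the 75 cells of the first block of wells 6 had a read, at 17.0 CPM, and in the 39 cells of the other 2 had one, at 5.44 CPM. The third ventricle had 3 cells and the lateral ventricle 2, at 0.152 and 0.188 CPM. The midbrain Sspo class had 1 cell at 7.13 CPM and the Nkx2-2 line Sspo class 1 at 13.9 CPM. The midbrain Ccdc153 class had 0 of 317 cells, and the Mog class 0 of 243.

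The Ret cells of the cord carried ciliated cell genes. All 8 had Ccdc153, from 1273 to 3731 CPM, and Foxj1, from 220 to 1043 CPM, and Snap25 was at 0 in each. Gfra1, the coreceptor for GDNF, was read in 4 of the 8, at 22.3, 119, 192 and 326 CPM. Its share was 50% in Ret cells and 27.4% in the other 106 cord cells. Ret cells were deeper, with a median of 1036967 reads against 741276, and the part of depth was not tested. The midbrain Sspo class had the coreceptor in nearly every cell and the receptor in 1, since Gfra1 was read in 98.0% of cells at 986 CPM, against 60.7 CPM in the cord. Gdnf itself was read in 11.2% of that class, at 14.5 CPM.

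Drd1 had the highest share of the 6 genes in any of the 10 groups. In the midbrain Sspo class 153 of 196 cells had a read, 78.1% (71.6 to 83.6), at 233 CPM. Cells with a read had a median of 260 CPM, quartiles of 161 and 386 and a highest cell of 1195 CPM, and 147 of them stood at 10 CPM or more. Thinned to 100000 reads, 74.5% of the class still had one. In the Nkx2-2 line Sspo class 8 of 12 cells had a read, 66.7% (34.9 to 90.1), at 163 CPM, or 122 CPM without the highest cell. The intervals of both classes overlapped. The midbrain Ccdc153 class had 26 of 317 cells, 8.20% (5.43 to 11.8), at 12.4 CPM. The third ventricle had 3 cells, at 0.500 CPM, the Mog class 2, and the lateral ventricle, the cord and the midbrain other cells 1 each. The other Nkx2-2 line classes had 0.

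The low level in the midbrain Ccdc153 class came from cells that also passed the Sspo threshold, which the order of the rule had placed there. There were 16 such cells, and 12 of them, 75% (47.6 to 92.7), had Drd1, at 299.8 CPM. Nr4a2 was read in 10 of them, at 125 CPM. In the other 301 cells Drd1 was read in 14 (4.65%), at 0.285 CPM, and only 2 of these cells reached 10 CPM. Nr4a2 was read in 17 of the 301, at 2.79 CPM. Over all samples 170 cells had Drd1 at 10 CPM or more, and 167 of them had Sspo at 500 CPM or more, out of 224 cells with that Sspo level. For Nr4a2 the same count was 104 of 126.

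**Figure D3:**
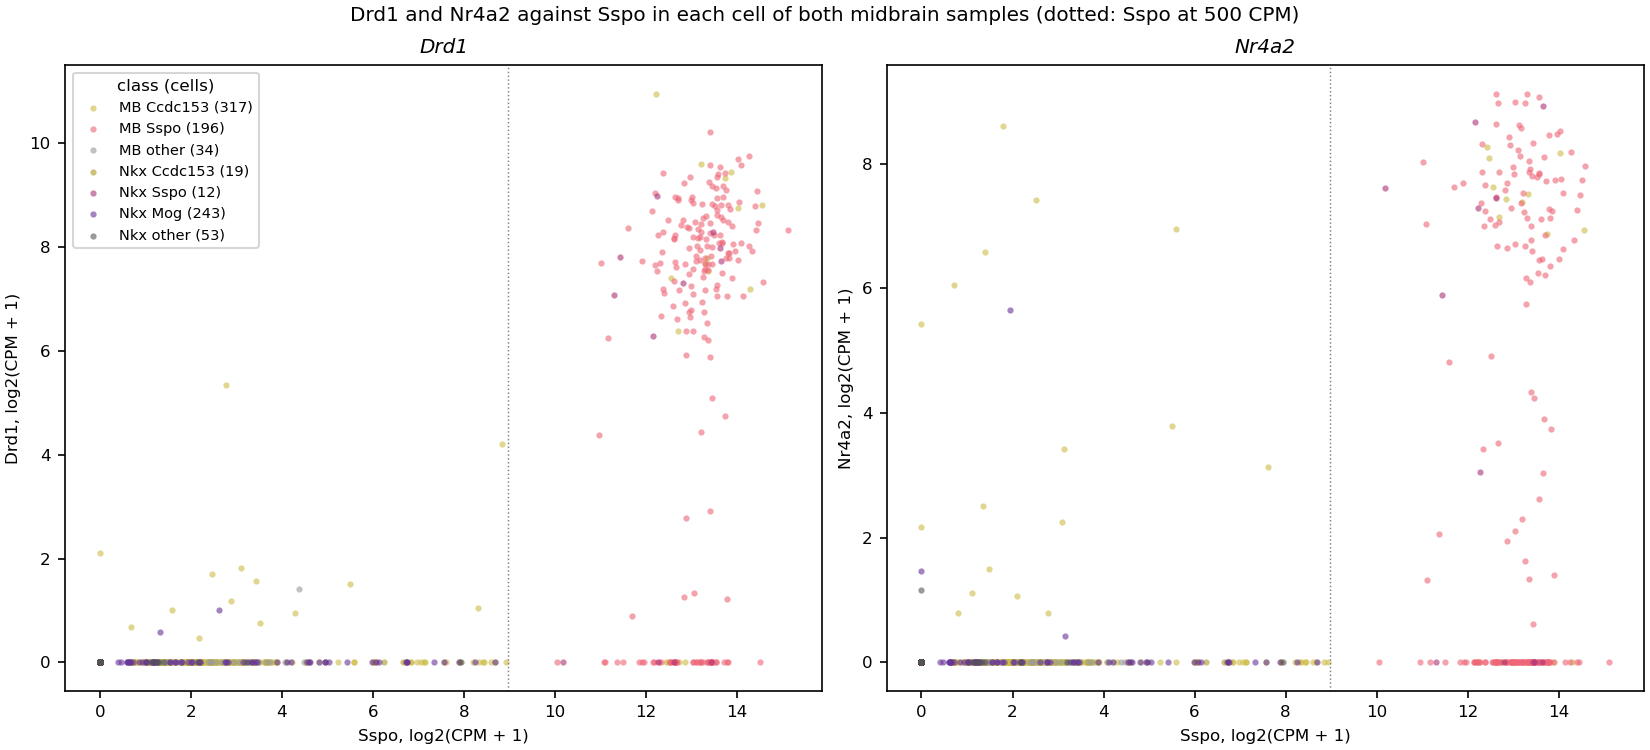
Level of Drd1 and of Nr4a2 against Sspo in each midbrain cell of both lines, both axes log2 of CPM plus 1, with lines at the 500 CPM Sspo threshold. Cells of the ventricles and the cord are not drawn. Over all samples, drawn or not, 167 of 170 cells with Drd1 at 10 CPM or more had Sspo at that threshold or above. For Nr4a2 it was 104 of 126.

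Inside the midbrain Sspo class, Drd1 was read in 84.7% (76.0 to 91.2) of the cells above the median Sspo level, at 279 CPM, and in 71.4% (61.4 to 80.1) of those below it, at 186 CPM. These share intervals overlapped. Cells with a Drd1 read had a median of 749513 reads against 786763 in the rest, so they were not the deeper ones. Adcy5, an adenylyl cyclase that the D1 receptor drives in the striatum, stood at 68.1 CPM in Drd1 cells and 27.0 in the rest, and Rgs14 at 176 and 134. The usual partners of the receptor in striatal neurons were low, with Ppp1r1b (DARPP-32) at 0.636 CPM against 344 in the midbrain Ccdc153 class and Gnal, the G protein subunit of striatal neurons, at 4.39 against 155. Adcy5 was the 1 signalling partner of 4 with values that was at least 4-fold higher in the Sspo class, at 59.2 against 5.33 CPM. Of the 4, 2 were at least 4-fold lower, where over all genes 7.03% were higher and 7.39% lower. Of 5 dopamine receptors listed, Drd1 was analysed, and Drd2, Drd3, Drd4 and Drd5 were not analysed here.

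Blocks of 96 consecutive wells show the spread inside a sample. Over 7 blocks of the midbrain Sspo class, Drd1 was read in 50% to 93.3% of cells and Nr4a2 in 20.0% to 67.9%. The sample titles give the first 480 midbrain wells another code than the later ones, and its meaning is not given. The later code is also that of the Nkx2-2 line, and the first that of the other 3 regions, so outside the midbrain the code and the line cannot be told apart. Of the midbrain Sspo cells, Drd1 was read in 80.8% under the first code and 70.0% under the later, at 243 and 211 CPM. Nr4a2 was read in 50.7% and 52.0%, and Aldh1a1 in 24.7% and 34.0%. For Aldh1a1 the summed level differed by more, 31.7 against 76.6 CPM.

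**Figure D4:**
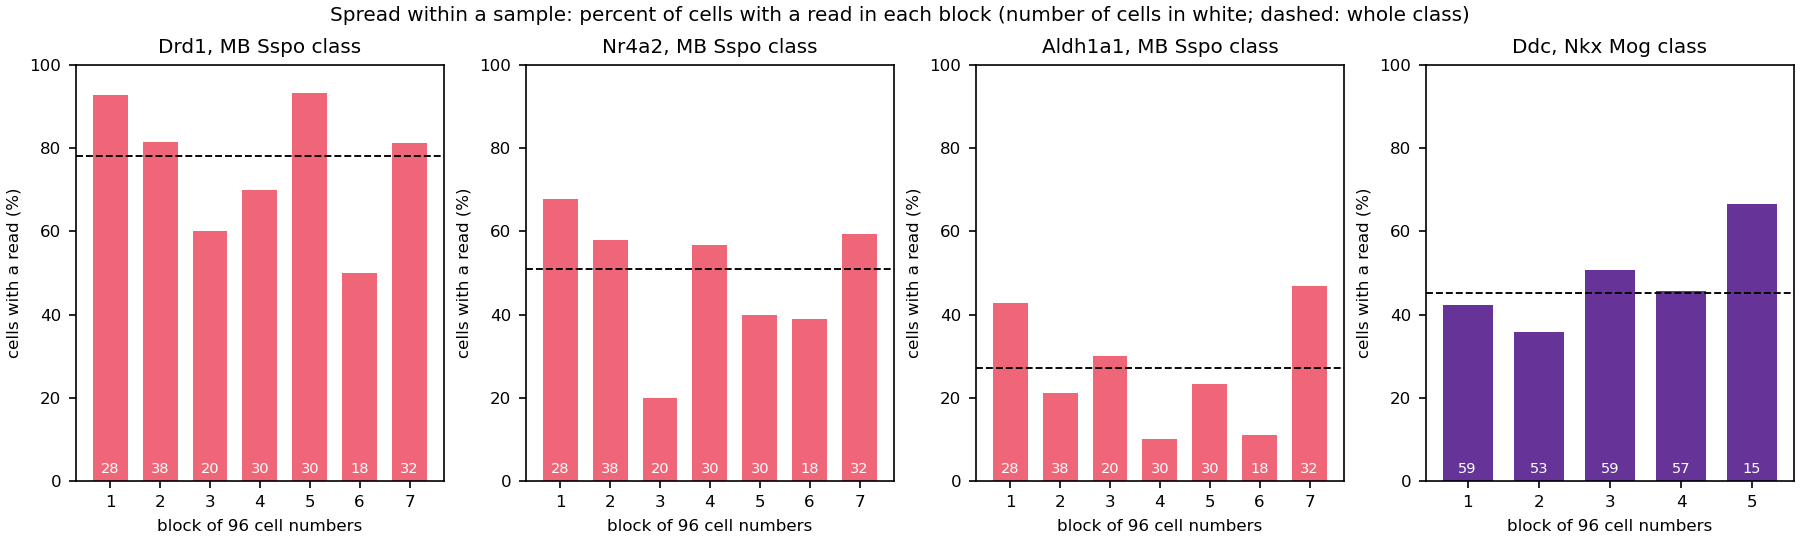
Percent of cells with a read in each block of 96 consecutive wells with at least 10 cells of the group, 1 bar per block, with a dashed line at the share of the whole class. Drd1 in the midbrain Sspo class lies between 50% and 93.3% and Ddc in the Nkx2-2 line Mog class between 35.8% and 66.7%.

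Joint reads were most common in the Sspo classes. Among midbrain Sspo cells 81 had both Drd1 and Nr4a2, 72 Drd1 only, 19 Nr4a2 only and 24 neither. Drd1 was thus read in 81.0% of the cells with Nr4a2 and in 75% of those without. Of the 53 Aldh1a1 cells 49, or 92.5%, had Drd1, against 72.7% of the others. The 12 cells of the Nkx2-2 line Sspo class went the other way. Drd1 was read there in 4 of 8 Aldh1a1 cells, 50%, against 100% of the others, and in 57.1% of Nr4a2 cells against 80%. Among the 9 Th cells of the midbrain Sspo class, 7 had Drd1, 77.8% against 78.1% of the cells without Th. Nr4a2 was read in 6 of them, 66.7% against 50.3%. Counting members per cell, 20 of the 196 cells had none, 68 had 1, 79 had 2, 26 had 3 and 3 had 4. No cell of any group had 5 or 6. Every cell of the Nkx2-2 line Sspo class had at least 1 member and 5 of 12 had 3. In the Mog class the joint reads were mostly Ddc with Aldh1a1, in 22 cells, which made 20.0% of Ddc cells and compares with 12% of cells without Ddc.

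Folds between groups were read against all genes that reached 10 CPM in a compared group, with 4-fold as the call. Between the highest and the next of the 4 regions of the Foxj1 line, where the midbrain was its Ccdc153 class, 2.00% of 10823 genes were called. Members called were 2 of the 3 that could be compared, Ret (67.9-fold, cord over lateral ventricle) and Drd1 (24.8-fold, midbrain over the third ventricle). All 3 reached 10 CPM only in the region where each was highest, which favoured a call in advance. The Drd1 fold rests on the 16 cells with Sspo at 500 CPM or more, and without them it was not called. Aldh1a1 was 3.38-fold higher in the midbrain class than in the lateral ventricle. Between the midbrain Sspo and Ccdc153 classes, 7.03% of 10796 genes were called higher in the Sspo class, among them Nr4a2 at 11.9-fold (log2 3.58) and Drd1 at 18.7-fold (log2 4.23), 2 of 3 members compared. Without the 16 cells in the Ccdc153 class these folds were 33.1 for Nr4a2 and 816 for Drd1. Genes called lower made up 7.39%, with 0 members. Between the Mog class and the midbrain Ccdc153 class, 9.66% of 10476 genes were called higher, among them Ddc at 329-fold (log2 8.36). That fold rests on the 1 Ddc cell of the Ccdc153 class, and without it Ddc had 0 reads there and was at least 8218-fold higher in the Mog class, with 3 reads over the group as the floor. Genes called lower made up 26.5%, among them Drd1, with 2 reads against 3178, out of 3 members compared. Without the 16 cells this Drd1 call ended, since the gene then reached 10 CPM in neither class. Nr4a2 in the Sspo comparison, and Ddc and Drd1 in the Mog comparison, likewise reached 10 CPM in only 1 of the classes compared. The numbers of members called are therefore a description and no evidence about the members as a set. Compared per length of exon, in CPM per kilobase, the highest group levels were 93.8 for Aldh1a1 in the midbrain other cells, 64.1 for Drd1 in the midbrain Sspo class, 38.4 for Nr4a2 in the Nkx2-2 line Sspo class, 21.6 for Ddc in the Mog class, 4.84 for Th in the Nkx2-2 line Sspo class and 1.89 for Ret in the cord.

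**Figure D5:**
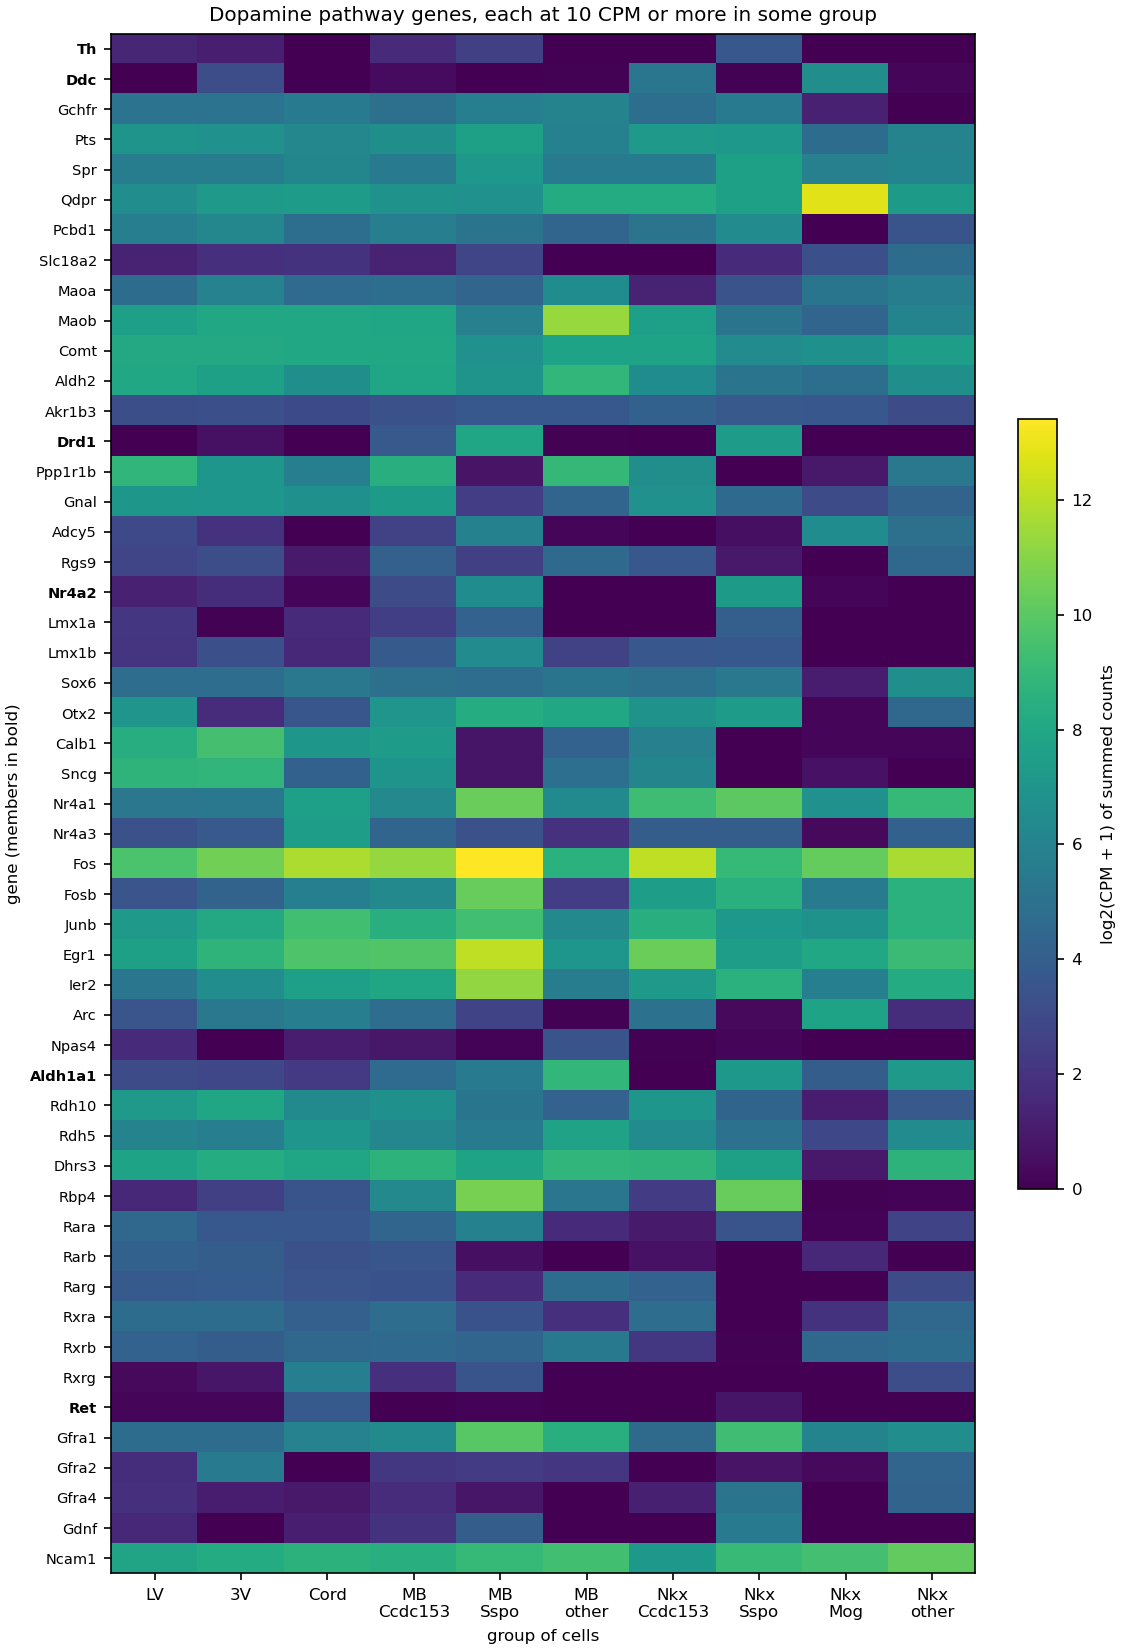
Level of 51 genes of the dopamine, retinoid, GDNF and immediate early lists in the 10 groups, as log2 of CPM plus 1. The Mog class column holds Ddc at 96.6 CPM and Qdpr at 7158 CPM, and the midbrain Sspo column holds Drd1, Nr4a2, Lmx1b, Rbp4 and Gfra1.

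Genes whose level ran most closely with a member were found by Pearson correlation of log2(CPM + 1) over the 10 groups, among 13381 genes, as a description, since groups of 1 line share animals and libraries. For Drd1 they were Rgs14 (0.999), Mamstr, Skap1 and Mgarp (0.997 each) and Fblim1 (0.996). Nr4a2 ran with Qprt (0.993), Acot3 (0.992), Ttc39aos1 (0.991), Gm281 (0.990) and Slc26a10 (0.988). Th ran with Rin1 (0.984) and Acot3 (0.977), and Nr4a2 and Drd1 correlated with each other at 0.978. The highest Th level, 11.4 CPM in the Sspo class of 12 cells, came from 1 cell, and was 0 CPM without it. The next highest was 4.83 CPM, in the midbrain Sspo class. The Th correlations thus lean on that 1 cell, and they were not computed without it. For Ret the 5 were Hox genes or a Hox locus transcript, such as Hoxb6 and Hoxc9 (0.980), which mark position along the cord. Ddc ran with Tnni1 (0.926), Aspa (0.899) and Opalin (0.887), genes of the Mog class. Aldh1a1 ran with genes that included Npdc1 (0.966) and Armh4 (0.960). Between cells of 1 group the order could differ. In midbrain Sspo cells with an Nr4a2 read, Qprt (115 against 155 CPM) and Acot3 (31.1 against 42.0) were lower than in the rest. In those with a Drd1 read, Rgs14 (176 against 134), Skap1 (107 against 92.8) and Mgarp (293 against 236) were higher. Hoxb7 was lower in the Ret cells of the cord (21.6 against 75.1 CPM).

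The genes lie, on GRCm38 in GENCODE vM21, at chr11:11814101-11898144 (Ddc), chr7:142892752-142931128 (Th), chr19:20492715-20643465 (Aldh1a1), chr2:57106830-57124003 (Nr4a2), chr6:118151745-118197718 (Ret) and chr13:54051183-54055705 (Drd1). Aldh1a1 is on the plus strand and the others are on the minus strand. Ddc overlaps the antisense gene 1700042O10Rik, and Aldh1a1 overlaps C730002L08Rik and the pseudogene Gm6684, which had between 0.433 and 2.48 CPM. The strand setting of the counting was not given in the sources used here, so reads of overlapping genes cannot be told apart.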

How the data were processed

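Cells were sorted into 96-well plates and sequenced by Smart-seq2, per the labels' protocols. The authors deposited a table of raw read counts, whole numbers for each gene in each cell, which was used for every value here. A second deposited table held log2 values, which matched (within 0.01, for 100% of values) the log2 of 1 plus the count over a factor per cell, and it was used only for that check. STAR 2.3.1o, Seurat 3 and mm10 are named in the submitters' processing notes. The counting tool, annotation, strand setting and size factor method are not given in the sources used here.

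The prefix of each column name gave its sample, and 0 columns were left over. The prefix Forebrain was read as the lateral ventricle and Tanycytes as the third, by anatomy and elimination. Cell numbers were taken as well order, so that the first 480 midbrain wells carry the first of the codes in the title. No cell was removed (0 cell profiles were identical). No doublet caller was run, since a well was sorted to hold 1 cell, and 1 alternative dropped, in each sample, the 2% with most genes detected.

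From the counts, CPM of each cell and of summed reads per group, shares of cells with a read, their intervals and folds were computed in Python 3.11.15 with numpy 2.4.6, pandas 2.3.3 and scipy 1.17.1, and figures drawn with matplotlib 3.10.9. A gene at 0 reads in a group was given a floor of 3 reads over the group. The scripts were tested on simulated data. Of the gene names 15004 matched GENCODE vM21, including the 6 members. RefSeq windows were searched for 5 members, of which those of Aldh1a1 are not shown, and Ret is not shown. The members and lists were chosen with earlier results of these data known. Named genes are the members, list genes reaching 10 CPM in some group (up to 6 per list) with the defining genes at 0, and the 5 genes most alike to each member. Some genes that this rule names are not reported here. Genes given within a class, and single cells, were chosen after their values were seen.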

Additional observations from a re-analysis of the deposited data

How the results depend on the processing

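The limits are those of 1 sample per group, of wells whose animal is not given, and of few cells in the Nkx2-2 line Sspo and Ccdc153 classes. Of 536 alternative shares, 481 stayed inside the interval of the reported share, and 65 of 68 did in the group where a member had its highest share. Summed levels held less well, with 359 of 607 alternative CPM values counted as the same as the reported value. The share of Drd1 cells in the midbrain Sspo class was 70.0% with the midbrain wells above 480 only. Leaving out a block of wells gave 0.00% to 10.0% for Th and 0.00% to 20.0% for Ret in the 12 Nkx2-2 line Sspo cells, since each rests on 1 cell, and 75.3% to 80.9% for Drd1 in the midbrain Sspo class. In the cord, leaving out a block gave Ret at 5.44 or 17.0 CPM. Added after seeing the data, leaving out cells with Sspo at 500 CPM or more put Drd1 in the midbrain Ccdc153 class at 4.65% of cells, with members called between regions at 1 (Ret) and members called lower in the Mog class at 0. The level of Drd1 in that class was 12.4 CPM, and 34.0 or 1.49 CPM with all class thresholds lowered or raised by a factor of 2. Counts of genes called moved with the rule. Between regions 217 genes were called at 4-fold, 770 at 2-fold, 106 at 8-fold, 739 with no minimum and 59 with a minimum of 50 CPM. The midbrain Sspo class went from 759 higher genes to 1978, 392, 1459 and 299 in the same order, and from 798 lower genes to 1612, 525, 1933 and 352. The Mog class went from 1012 higher genes to 1831 at 2-fold, 615 at 8-fold and 657 with a 50 CPM minimum, and from 2777 lower genes to 5354 with no minimum and 1394 with 50 CPM. Members called lower were 1 in the midbrain Sspo class and 3 in the Mog class with no minimum, and 0 in the Mog class with 50 CPM, and 0 were called between regions with 50 CPM. The tables hold 0 gene names starting with mt-, so leaving out mitochondrial genes changed no total. No paired analysis was possible because each group held 1 sample.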
